A study of Drosophila melanogaster with 8 samples.

Results

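The pericentromeric ends of 4 chromosome arms of Drosophila melanogaster were examined for RNA polymerase II (Pol II) occupancy in adult terminal tracheal cells. The ends were set by position: GATC fragments, the stretches between neighbouring GATC sites, that start at or above 22500000 on 2L, 23000000 on 3L or 22000000 on X, or that end at or below 4200000 on 3R (Release 6 coordinates). These rules held 36199 of the 383654 nuclear fragments, 3158 on 2L, 15716 on 3L, 12988 on 3R and 4337 on X. The rules use no measured value, although the members were chosen with earlier results of these data known. The ends span 11.9 Mb, of which 1.01 Mb lie on 2L, 5.11 Mb on 3L, 4.20 Mb on 3R and 1.54 Mb on X. They were compared with the other 260162 fragments of the same arms.

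The DNA around a Drosophila centromere is packed as constitutive heterochromatin, which is rich in satellite repeats and transposons and carries methylated lysine 9 of histone H3 bound by HP1a. Genes moved next to this chromatin are often silenced, which is the basis of position effect variegation. The pericentromeric blocks nevertheless hold resident genes, many with long introns full of transposon remnants, and some of them, such as light (lt), are known to need the heterochromatic surroundings for normal activity.

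Targeted DamID marks the GATC sites near a protein fused to the bacterial DNA adenine methyltransferase Dam. All flies carried w-; dSRF-GAL4, UAS-CD8GFP/+; tub-GAL80ts, with UAS-LT3-Dam for free Dam or UAS-LT3-Dam-Pol II for the fusion. dSRF-GAL4 drives the construct in terminal tracheal cells, the branched cells that carry air to the gut, and the temperature-sensitive GAL80 held it off at 18 °C until adults aged 7 days were moved to 29 °C for 24 hours. During the last 16 hours the flies were fed sucrose alone (Suc, control intestine) or sucrose to which the bacteria solution Pe had been added (damaged intestine), and 60 midguts with their tracheal cells were pooled per condition and replicate. The 8 libraries form 4 groups of 2 biological replicates, Dam and Dam-Pol II under each feeding. Each pair of libraries is represented by 1 deposited profile of log2 Dam-Pol II over Dam per fragment, so 2 Pe and 2 Suc profiles were compared. The rows of the profile labelled Suc replicate 2 carry the number 3, and its replicate number here is that of the labels. Sequencing depth is unknown.

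Marker genes were read against the 21.2% of all genes tested that were called occupied in Suc and the 7.53% called in Pe. Of 6 terminal tracheal genes, among them bs, which encodes dSRF, and the FGF receptor gene btl, 4 passed the test for occupancy in Suc and 1 did in Pe, and their means over the 4 profiles ran from 0.10 to 1.17. Of 7 enterocyte genes for digestive enzymes, all 7 were called in Suc and 2 in Pe, with means from 0.36 to 2.38. Both Pe values were below both Suc values in 5 of the 6 tracheal and 5 of the 7 enterocyte genes. Among all genes tested this order held in 14%, and the opposite order held in 0 genes of either list. Of 3 visceral muscle genes 1, Act57B, was called in Suc and 0 in Pe. The part of gut cells in the values below was not tested, and a smaller share of tracheal cells cannot be told apart from lower occupancy per cell. Neither of the 2 haemocyte genes nor any of the 3 enteroendocrine genes was called in either condition.

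Mean Pol II occupancy was lower in every end than in the rest of its arm, in all 4 profiles. On 2L the mean log2 ratio of the end was -0.06 and -0.02 in Pe (replicates 1 and 2, here and below in that order) and -0.07 and -0.06 in Suc, against 0.11, 0.15, 0.06 and 0.21 in the rest of the arm. On 3L the end gave -0.06 and -0.02 in Pe and -0.08 and -0.08 in Suc, against 0.13, 0.16, 0.08 and 0.23. The end of 3R gave -0.02, -0.0032, -0.03 and -0.02, against 0.14, 0.17, 0.09 and 0.26 in its arm. The X end was the only one whose means lay on both sides of 0, at 0.0013, 0.02, -0.02 and 0.01, against 0.13, 0.17, 0.09 and 0.23. In no arm did the values of the end overlap those of the rest.

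**Figure D1:**
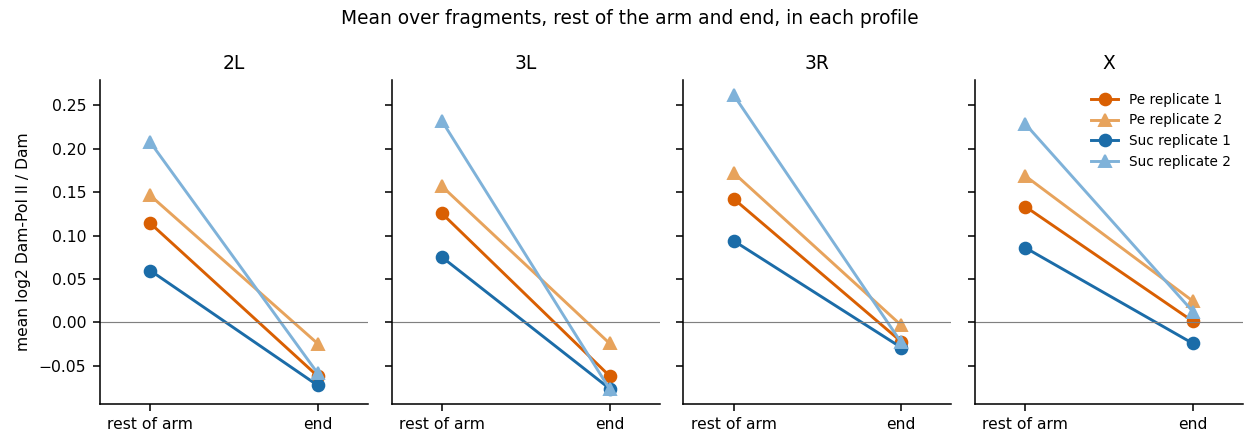
Mean log2 Dam-Pol II over Dam (vertical axis) of all fragments in the rest of each arm and in its pericentromeric end, with 1 line per profile. Every line falls from the rest to the end, the end means lie between -0.08 and 0.02, and Suc replicate 2 has the highest rest means.

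End minus rest was -0.19 on 2L, -0.21 on 3L, -0.19 on 3R and -0.15 on X as the mean of 4 profiles. Over the 4 arms together it was -0.19 ± 0.06 (SD, n = 4), with -0.17 and -0.17 in Pe and -0.13 and -0.28 in Suc. All 4 profiles were below 0, and the exact two-sided sign-flip permutation test gave p = 0.125, the smallest value that 4 profiles allow. Against only the 2000000 bp of each arm next to the boundary the pooled difference was -0.16. By arm it was -0.09 on 2L, -0.16 on 3L, -0.28 on 3R and -0.06 on X. The median over fragments did not carry the difference: end minus rest of the medians was 0.0092, because the median fragment lay at or near 0 on both sides.

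The lower mean went with a missing upper tail and with many exact zeros. Fragments at or above a log2 ratio of 1 made up 0.401% and 0.564% of the ends in Pe and 0.459% and 0.704% in Suc, against 7.65%, 9.48%, 8.49% and 13.1% of the rest. A value of exactly 0 stood at 46.1% and 63.9% of end fragments in Pe and 45.5% and 46.0% in Suc, against 9.84%, 18.2%, 8.23% and 8.73% of the rest. In all 4 profiles at once 34.6% of end fragments and 5.67% of other fragments were at 0, and the sources used here do not give whether a 0 marks a fragment without reads. With every fragment that was at 0 in any profile left out, an alternative chosen after seeing the data, end minus rest was -0.30.

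High signal inside the ends was rare, and nearly all of it lay in genes. Of the 36199 end fragments 84, or 0.232%, were at or above 1 in all 4 profiles, against 4.64% of the rest of the arms and 4.02% of all nuclear fragments. The X end held 44 of them, 1.01% of its fragments, the 3L end 18, the 3R end 13 and the 2L end 9. Of the 84, 80 lay in or touched an annotated gene, although genes cover only 47.1% of end fragments. High fragments of the rest of the arms were also mostly genic, 11159 of 12060, where genes cover 81.0% of fragments. In the ends 4 high fragments lay outside genes, 2 of them next to alpha-Cat, 7 and 17 bp long and with the same values. Genic and intergenic fragments of the ends had similar means, -0.03 and -0.04, while in the rest of the arms they were 0.18 and 0.03.

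As a share of all fragments, those well below 0 were also scarcer than elsewhere. At or below -0.5 in all 4 profiles were 127 end fragments, 0.351%, against 0.633% of the rest and 0.623% of all nuclear fragments. These shares count exact zeros, which were more common in the ends. Fragments at 0 in no profile numbered 10885 in the ends and 206507 in the rest, where 1647 fragments were that low. On that base low fragments made up a larger share of the ends than of the rest. The 3L end held 83 of the 127, and 75 of the 127 lay in genes. The gene l(3)80Fg, a lethal complementation group of the 3L heterochromatin, had 16, the RNA helicase gene Dbp80 had 12 and alpha-Cat had 9.

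Occupancy was uneven along the ends. In bins of 0.2 Mb the mean of the 4 profiles was below 0 in 6 of 6 bins on 2L, 26 of 26 on 3L, 20 of 21 on 3R and 6 of 8 on X. On 3R the bin next to the boundary had a mean of 0.08 and held 12 of the 13 high fragments of that end. Beyond 0.8 Mb from the boundary, the 17 remaining bins of 3R had means between -0.01 and -0.0022 and no high fragment, and 24.7% to 66.9% of their fragments were at 0 in all 4 profiles. On X the bin from 0.4 to 0.6 Mb held 27 of 44 high fragments and had a mean of 0.09.

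**Figure D2:**
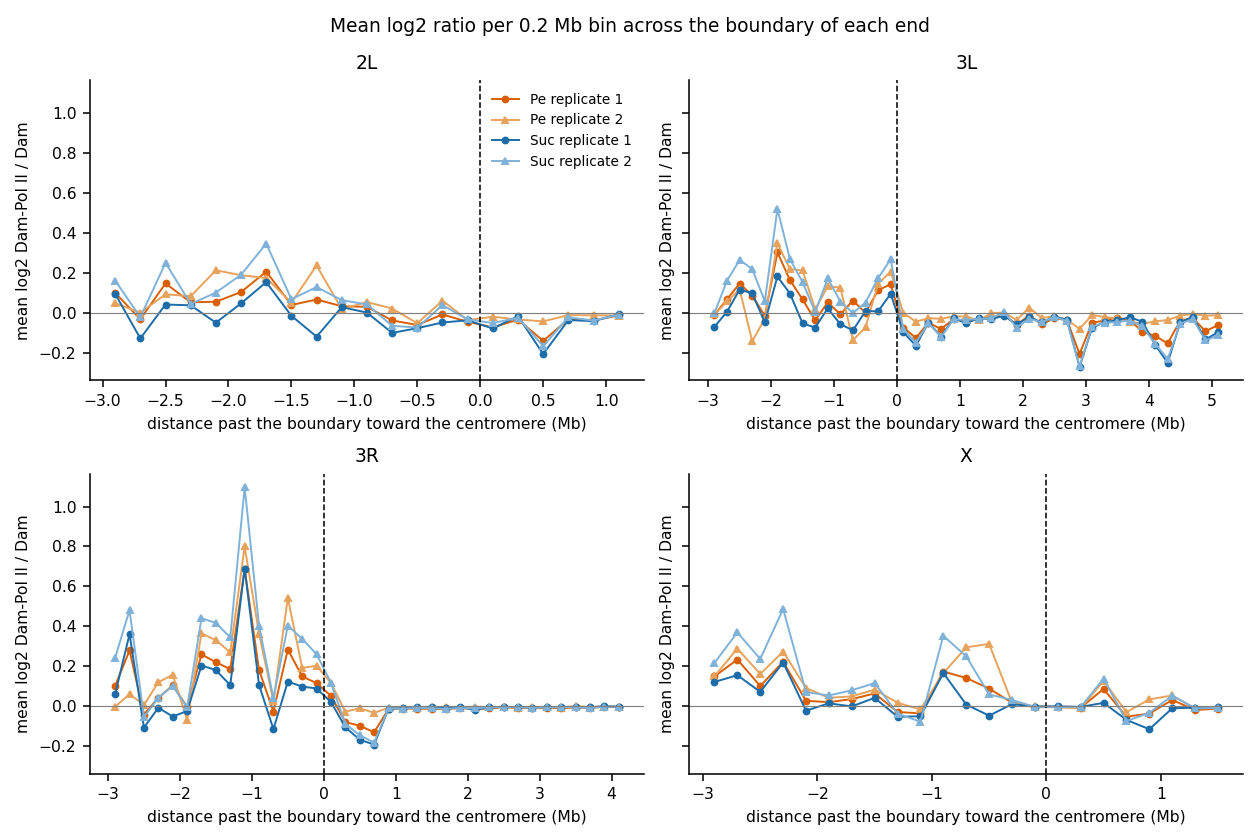
Mean log2 Dam-Pol II over Dam (vertical axis) in 0.2 Mb bins against the distance past the boundary of each end in Mb (horizontal axis, positive toward the centromere), with 1 line per profile and a dashed line at the boundary. Inside the ends the lines stay near or below 0, with dips on 2L, 3L and 3R, and the bins from 0 to 0.2 Mb on 3R and from 0.4 to 0.6 Mb on X are above 0 in all 4 profiles.

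The lowest bins on 2L, 3L and 3R held named genes that were themselves below 0. On 3L the bin from 2.8 to 3 Mb lay whole inside l(3)80Fg and had means of -0.21 and -0.08 in Pe and -0.27 and -0.27 in Suc. On 3R the bin from 0.6 to 0.8 Mb was covered to 62.9% by Parp1, the poly(ADP-ribose) polymerase gene, and had means of -0.13, -0.03, -0.19 and -0.18. On 2L the bin from 0.4 to 0.6 Mb had means of -0.14, -0.04, -0.21 and -0.17. It held lt, cta and the chitinase gene Cht10, which covered 9.17%, 5.57% and 13.2% of it. The same 2L bin also held Spf45 and lncRNA:CR43242, with means of 0.82 and 0.21 and values above 0 in all 4 profiles. In each of these bins Pe replicate 2 was the profile nearest to 0.

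The boundaries themselves were not steps. In the 100 kb strips on either side the mean of the 4 profiles was -0.05 inside and -0.01 outside on 2L, -0.06 and -0.02 on 3L, 0.21 and 0.15 on 3R, and -0.0051 and -0.0043 on X. Fragments at 0 in all 4 profiles made up 46.1% of the strip outside the 2L boundary and 41.6% of that outside the X boundary.

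Stretches of at least 3 neighbouring fragments at or above 1 in all 4 profiles numbered 13 in the ends, 1.10 per Mb, against 19.6 per Mb in the rest of the arms. All 13 touched a gene. On 3L they lay in Set1 (chr3L:25109150-25110202), which encodes a histone H3 lysine 4 methyltransferase, over RpL15 (chr3L:27267243-27268340) with 2 snoRNA genes inside its span, and at the edge of alpha-Cat (chr3L:23337984-23338554). The Set1 stretch averaged 2.24 and 2.83 in Pe and 2.995 and 2.23 in Suc, the highest mean of the 13.

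On 3R the stretches lay in Gfat1 (chr3R:4130428-4132470), the gene for the entry enzyme of the hexosamine pathway, and in CG12581 (chr3R:4184065-4185637). Gfat1 averaged 1.98 and 2.97 in Pe and 1.64 and 2.90 in Suc over its stretch. The single stretch on 2L lay near the upper end of CG12567 (chr2L:23173132-23174154) and over lncRNA:CR44268, with 1.83, 1.81, 1.95 and 3.07. On X there were 7, at CG14621, l(1)G0196 with lncRNA:CR43493, CG17600 with CG17598, and the overlapping trio CG17169, CG17162 and CG17159. The trio held 13 of the 44 high X fragments.

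Some of these stretches took up a small part of a gene whose mean was low. CG12567 spans 13363 bp and had gene means of -0.15 and 0.16 in Pe and -0.38 and -0.07 in Suc, so that its groups overlapped around 0 although a stretch of 1023 bp within it was above 1 in every profile. l(1)G0196, with 11 high fragments among its 86, had means of 0.12, 0.15, 0.09 and 0.11. alpha-Cat, the gene for the adherens junction protein alpha-catenin, had a low stretch inside the gene (chr3L:23324634-23325937) at -1.19 and -1.26 in Pe and -1.85 and -1.35 in Suc. Of the high stretch at its upper end, 1 fragment touched the gene. The others were the neighbouring fragments of 7 and 17 bp, which have the same values.

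A total of 208 annotated genes of any type lay whole inside the ends. Of the 160 that are protein coding or lncRNA genes, 11 had fewer than 3 fragments and 10 were at 0 in every profile, which left 139 for testing, 14 on 2L, 52 on 3L, 17 on 3R and 56 on X. A gene's value is the mean log2 ratio of its fragments weighted by overlap. Of the 139 means over 4 profiles 67 lay within 0.1 of 0, 21 were at 0.5 or above and 21 at -0.2 or below, and the range was -0.81 to 2.20. The median was -0.02, against 0.05 in the rest of the arms.

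A gene was called occupied when its mean in a condition was above 0 in limma's one-sided test, with a Benjamini-Hochberg adjusted p under 0.05 over all 14006 genes tested. In Suc 13 of the 139 genes were called, or 9.35%, against 21.2% of all genes tested. In Pe 4 were called, or 2.88%, against 7.53% of all genes. The difference between these shares was not tested. The counts moved in both conditions when a profile of either was left out. In such fits the shared spread came only from the condition that kept 2 profiles. They therefore cannot show whether the calls rest on a single profile. The counts also changed with the fit, to 8 in Suc and 24 in Pe with median and MAD scaling. They were 21 and 29 with quantile normalization and 21 and 23 with the replicate number as a block.

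The 4 genes called in both conditions were MED21, Set1, CG40228 and lncRNA:CR43493, with 4, 34, 4 and 6 fragments. MED21, which encodes a subunit of the Mediator complex that links activators to Pol II, had 1.63 and 1.13 in Pe and 1.37 and 2.01 in Suc, with overlapping groups (limma adjusted p = 0.0254 in Suc and 0.0487 in Pe). Set1 had 0.69 and 0.94 in Pe and 0.42 and 0.56 in Suc, and both Pe values were above both Suc values (limma adjusted p = 0.0327 in Suc and 0.0458 in Pe). The end of Set1 overlaps MED21 by 257 bp, and fragments there count for both.

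CG40228 had 0.50 and 0.53 in Pe and 0.70 and 0.60 in Suc, with both Suc values above both Pe values. lncRNA:CR43493 had 0.57, 0.76, 0.66 and 0.59, with overlapping groups. It lies inside l(1)G0196 and they cannot be told apart where they share fragments.

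The ends hold RpL15, RpL10 and RpL5, which encode proteins of the large ribosomal subunit. RpL15 had the highest mean in the ends, with 1.86 and 2.04 in Pe and 1.72 and 3.19 in Suc. It was called in Suc (limma mean 2.46 ± 0.41, SE; adjusted p = 0.0294) and missed in Pe (1.95 ± 0.41, SE; adjusted p = 0.0586). RpL5 on 2L had 0.67, 1.02, 0.59 and 1.19 and was called in Suc as well, with adjusted p = 0.0420 by limma. RpL10 on 3L, with 0.82, 1.59, 0.42 and 0.94, was called in neither condition.

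None of the fragments of these 3 genes was at 0 in all 4 profiles, and the conditions overlapped in each gene. Beside RpL5 on 2L, the splicing factor gene Spf45 had 1.0 and 0.61 in Pe and 0.65 and 1.01 in Suc and was called in Suc. The next highest gene on 2L, lncRNA:CR43242, had 0.15, 0.39, 0.11 and 0.21 and lay below RpL5 and Spf45 in every profile.

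On 3R the highest genes lay within the first 0.2 Mb. CG40198 had 0.95 and 0.90 in Pe and 1.06 and 2.05 in Suc, and Suc replicate 2 stood far above the other 3. Gfat1 had 0.84, 1.48, 0.52 and 1.21 and was called in neither condition, while CG12581, with 0.61, 0.61, 0.57 and 1.01, was called in Suc. Both groups overlapped in Gfat1 and in CG12581.

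On X the 3 highest were CG17169, CG14618 and CG17159. CG17169 had 1.43 and 1.58 in Pe and 1.25 and 2.26 in Suc. CG14618 had 1.16, 1.77, 1.31 and 2.04, and both were called in Suc. CG17159 overlaps CG17169 and had 1.12, 1.82, 0.72 and 1.68, without a call. Also called in Suc were CG40486 and lncRNA:CR45502.

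**Figure D3:**
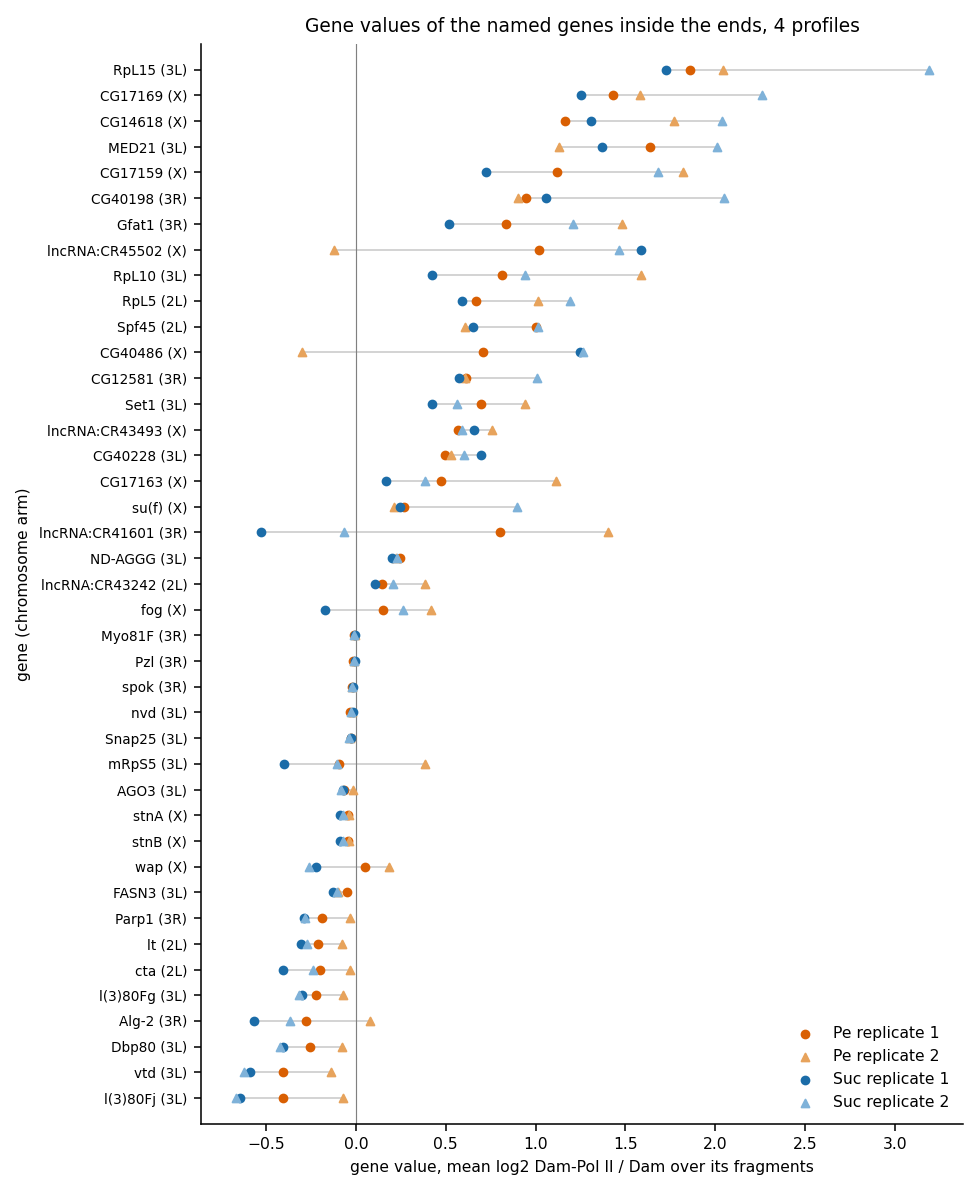
Gene values (horizontal axis, mean log2 Dam-Pol II over Dam over the fragments of a gene) of the named genes inside the ends, sorted by the mean of the 4 profiles, with 1 point per profile and the arm in brackets. RpL15 is at the top with 1.72 to 3.19 and l(3)80Fj at the bottom with -0.67 to -0.07.

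Long genes of the ends were the ones most often below 0. Of 48 end genes of 10 kb or more, 28, or 58.3%, were below 0 in all 4 profiles, against 16.5% of such genes in the rest of the arms. Among genes under 2 kb the shares were 22.8% and 22.3%, and from 2 to 10 kb they were 20.6% and 19.5%. A gene at exactly 0 in any profile cannot count as below 0 in all 4. The shares above 0 in all 4 profiles were lower in the ends in every class. They were 22.8% against 37.7% under 2 kb, 32.4% against 39.0% from 2 to 10 kb and 12.5% against 34.7% for the longest genes. Called occupied in Suc were 9 of the 57 end genes under 2 kb, 15.8% against 22.9% in the rest of the arms. From 2 to 10 kb 3 of 34 were called, 8.82% against 20.2%, and of the 48 longest end genes 1 was called, 2.08% against 16.4%. These are counts of genes that passed the filter on fragments and zeros, and no test was made on them.

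**Figure D4:**
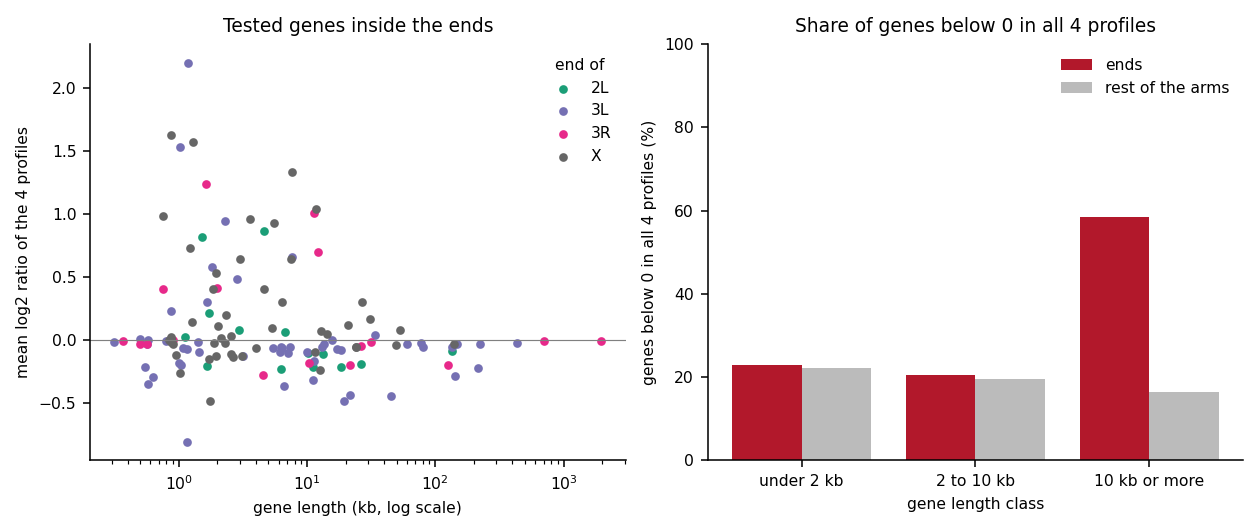
Left, mean log2 ratio of the 4 profiles (vertical axis) against gene length in kb (horizontal axis, log scale) for the 139 tested genes of the ends, coloured by arm. Right, share of genes below 0 in all 4 profiles in 3 length classes, 58.3% of the longest end genes against 16.5% in the rest of the arms.

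The well studied pericentromeric genes, a list of 25 tested members, leaned to the low side. Of the 25, 16 were below 0 in all 4 profiles and 6 above 0 in all 4, against 20.6% and 37.8% of all genes tested. Among the 139 end genes these shares were 34.5% and 21.6%, and among end genes of 10 kb or more 58.3% and 12.5%. Several of the low members are that long. The median of their means was -0.06 for the 25, against 0.05 over all genes tested. In Suc 3 were called, RpL5, RpL15 and Set1, against 21.2% of all genes, and in Pe 1, Set1, against 7.53%.

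The lowest of them was l(3)80Fj, at -0.41 and -0.07 in Pe and -0.65 and -0.67 in Suc. vtd, the gene for the cohesin subunit Rad21, had -0.41, -0.14, -0.59 and -0.62. Dbp80 had -0.26, -0.08, -0.40 and -0.42. In these 3 genes both Pe values were nearer to 0 than both Suc values and the groups did not overlap, which was also so in lt, the gene for a vesicle fusion subunit, at -0.21, -0.08, -0.31 and -0.27.

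cta, a G protein alpha subunit gene, had -0.20 and -0.03 in Pe and -0.41 and -0.24 in Suc. Parp1 had -0.19, -0.03, -0.29 and -0.28. l(3)80Fg had -0.22, -0.07, -0.30 and -0.31. Alg-2, which encodes a calcium binding protein, was below 0 in 3 profiles and at 0.08 in Pe replicate 2. The shares of fragments at 0 in all 4 profiles were 1.72% in vtd, 0% in cta and 23.0% in Dbp80.

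Other members of the list sat close to 0 in every profile. Myo81F, an unconventional myosin gene that spans 1966 kb of 3R, had -0.01, -0.0060, -0.0073 and -0.0087, and 43.6% of its 6016 fragments were at 0 in all profiles. Pzl, for a Piezo-like channel, had values from -0.01 to -0.0061 over 2294 fragments. Snap25, a synaptic SNARE gene, lay between -0.04 and -0.03, and AGO3, an Argonaute gene of the piRNA pathway, between -0.08 and -0.02. The ecdysone synthesis genes nvd and spok lay between -0.03 and -0.02, and the synaptic genes stnA and stnB, which share 1 transcript span, between -0.09 and -0.04.

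On X, su(f), which encodes a subunit of the mRNA cleavage machinery, was above 0 in all profiles at 0.27 and 0.21 in Pe and 0.24 and 0.90 in Suc. ND-AGGG, a subunit gene of mitochondrial complex I, varied least among the genes above 0, from 0.20 to 0.25. fog, the gene of a secreted ligand, had 0.15, 0.42, -0.17 and 0.26, with overlapping groups. FASN3, a fatty acid synthase gene, lay between -0.13 and -0.05. wap had 0.05 and 0.19 in Pe and -0.22 and -0.26 in Suc, so that its groups lay on opposite sides of 0 without a call.

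An array on X was nearly without signal. Between 22143058 and 22252414 lie 21 coding genes of 833 to 876 bp, of which 12 were tested and 8 were at 0 in every profile. Their largest value in any profile was 0.11 from 0, and the next gene reached 0.04. The sequences of the 21 genes were not compared. Near-identical copies may share reads or lose them, and whether that happened here was not tested. Among gene types outside the test, asRNA:CR43480, which overlaps CG17159, had 1.47, 1.76, 1.51 and 2.01. The 2 genes that straddle a boundary, nrm on 3L and beta-Man on 3R, had means of -0.07 and 0.09 and were not called.

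Feeding Pe was compared with Suc to ask whether occupancy in the ends shifts when the intestine is damaged. No gene of the ends differed in limma's two-sided test, with 0 of 139 called and 0% of all 14006 genes called, at a smallest adjusted p of 0.897. At an unadjusted p under 0.05 there were 7 end genes, all higher in Pe, and 551 of all genes, of which 232 were higher in Pe. For the ends as a whole, Pe minus Suc of end minus rest was 0.03, from -0.17 in Pe and -0.21 in Suc, with p = 1 in the exact permutation test, which cannot go below 0.333 with 2 against 2. This sign turned under 4 other settings of the values and without Suc replicate 2.

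Both Pe values were above both Suc values in 52 of the 139 end genes, 37.4%, against 23% of all genes tested, and below in 9, 6.47%, against 14%. On 3L 26 of 52 genes had this order. Long genes leaned to Pe outside the ends too, and made up 48 of 139 end genes against 1555 of 10945 in the rest of the arms. At 10 kb or more both Pe values were above in 50% of end genes and 38.7% of the rest, and below in 2.08% and 6.95%. From 2 to 10 kb these shares were 32.4% and 19.7% above and 0% and 13.4% below. Under 2 kb they were 29.8% and 21.3% above and 14% and 15.5% below. The shares by length were not tested. The lean to Pe also depended on scaling. When each profile was scaled by its median and spread, 34 end genes were above and 26 below, against 20% and 10.7% of all genes. After quantile normalization 35 were above and 21 below, against 20.2% and 15.6%. Many of the genes were below 0 in all profiles, and Pe replicate 2, which had the most fragments at 0, lay nearest to 0 in lt, cta, Parp1, l(3)80Fg, vtd, Dbp80 and l(3)80Fj. The part of the zeros in this order was not tested.

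The largest difference upward was at lncRNA:CR41601 on 3R, with 0.80 and 1.40 in Pe and -0.53 and -0.07 in Suc. The groups did not overlap and lay on opposite sides of 0 (limma difference 1.40 ± 0.30, SE; unadjusted p = 0.0144, adjusted p = 0.897). It covers 759 bp with 7 fragments and lies 11 bp from Gfat1. Among genes whose groups did not overlap, CG17163, l(3)80Fj and mRpS5 followed with differences of 0.52, 0.42 and 0.39 and wide spreads between the Pe profiles. CG17163 holds only 3 fragments.

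Downward, the largest differences were at the neighbours lncRNA:CR45502 and CG40486 on X, which lie 28 bp apart. lncRNA:CR45502, with 3 fragments, had 1.02 and -0.12 in Pe and 1.59 and 1.46 in Suc. CG40486, with 6 fragments, had 0.71, -0.30, 1.25 and 1.27. In both, the Suc values lay close together and Pe replicate 2 was far below Pe replicate 1. The limma differences were -1.08 ± 0.45 (SE) and -1.05 ± 0.39 (SE), both with adjusted p = 0.897. CG40198 and CG40228, at -0.63 and -0.14, were next among genes whose groups did not overlap.

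**Figure D5:**
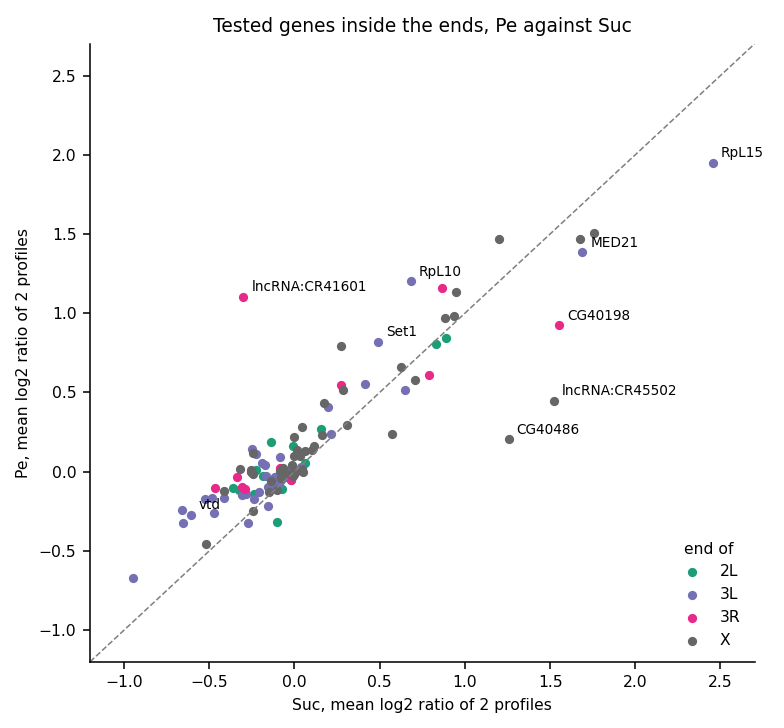
Mean gene value in Pe (vertical axis) against Suc (horizontal axis), each over 2 profiles on the log2 scale, for the 139 tested genes of the ends, coloured by arm, with a dashed line of equality. Most points lie near the line, lncRNA:CR41601 lies above it and CG40486 and lncRNA:CR45502 lie below it.

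Genes that encode heterochromatin proteins were read as well, wherever they lie in the genome. Of 27 tested, 3 were called in Suc and 1 in Pe, against 21.2% and 7.53% of all genes. These counts are small and their difference from all genes was not tested. In all 4 profiles 2 were below 0 and 10 above 0, against 20.6% and 37.8% of all genes. The median of their means was 0.13, against 0.05 over all genes. HP1b, which encodes a paralogue of HP1a, was called in both conditions with 0.66 and 0.62 in Pe and 0.60 and 0.86 in Suc. Hmt4-20, the H4 lysine 20 methyltransferase gene, had 0.38, 0.62, 0.28 and 0.80, and egg, an H3 lysine 9 methyltransferase gene, had 0.22, 0.37, 0.35 and 0.90. Panx, a piRNA-guided silencing factor gene, ranged from -0.17 to 0.92, the widest of the 4.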

How the data were processed

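Genomic DNA from pooled midguts was treated with DpnI, adaptors were ligated, and DpnII digestion and amplification preceded library making, per the labels' protocols. The authors deposited 1 profile per condition and replicate, and its values were taken as log2 ratios of the fusion to free Dam, judged by their range and sign. The sources used here do not give the log base, the aligner, how profiles were scaled or what an exact 0 means. The build is BDGP 6, per the submitters' processing notes. The 28 mitochondrial fragments were left out.

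Fragment values were averaged per end and per rest of arm in each profile, and profiles were compared with exact permutation tests. Gene positions came from the RefSeq gene table of Release 6, without strand or exons, so overlapping genes share fragments. Protein coding and lncRNA genes with at least 3 fragments and a value other than 0 were fitted together in limma 3.58.1 (R 4.3.3), with 1 mean per condition, a shared spread and a prior variance trended on fragment number. Averages were computed with pandas 2.3.3 and numpy 2.4.6 (Python 3.11.15), and the fit was tested on simulated data. Named genes are those called in both conditions, the 3 highest means of each end, the well studied list, the 4 largest non-overlapping differences in each direction and up to 4 heterochromatin protein genes. Genes named for their stretches of high or low fragments, their place in the lowest bins or their lack of signal were chosen after their values were seen. The members and lists were chosen with earlier results of these data known. Alternatives were other scalings, summaries, filters, boundaries and thresholds, the replicate number as a block and leaving out each profile.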

Additional observations from a re-analysis of the deposited data

How the results depend on the processing

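End minus rest kept its sign in every arm under all alternatives but the median over fragments, which gave 0.012 on 2L, 0.0040 on 3L, 0.0093 on 3R, 0.0068 on X and 0.0092 pooled. Leaving out each profile in turn gave -0.21 to -0.16 pooled. Pe minus Suc of that difference turned to -0.018 with medians, -0.0026 with length weights, -0.031 with median and MAD scaling and -0.0060 with quantile normalization, and ran from -0.039 to 0.11 with a profile left out. The count of 84 high fragments was 167 at a threshold of 0.5 and 13 at 2.

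Calls of occupied end genes in Suc numbered 8 with median and MAD scaling, 21 with quantile normalization, 5 with at least 10 fragments, 2 with the median of the fragments and 0 to 18 with a profile left out. In Pe they numbered 24, 29, 1 and 0 under the same 4 settings, 7 without fragments at 0 in every profile, and 0 to 19 with a profile left out. A lone profile was then assumed to vary like the other condition. End genes with both Pe values higher numbered 34 with median and MAD scaling and 34 with at least 10 fragments, and those with both lower 26 and 1, and 21 with quantile normalization. Counts of genes that differed between Pe and Suc stayed at 0 in every fit.

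The replicate numbers are shared by Pe and Suc, but no label says that a number marks a day or batch. Same-numbered deviations correlated at 0.253 over the end genes, and with 2 pairs this does not show pairing. The replicate block gave 21 calls in Suc and 23 in Pe.

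Over 557 alternatives for 45 named gene results, 424 kept their side of the threshold, 70 passed it, 57 lost it and 6 turned sign. The 6 were fog in Suc at -0.11 with the median of the fragments and -0.17 without Suc replicate 2 (0.05 to 0.26 in the other fits with a profile left out), lncRNA:CR43242 at -0.030 in Suc and -0.0012 in Pe with the median, and Pe minus Suc of CG40228 at 0.064 with median and MAD scaling and 0.0030 with the median. The causes were not tested. Depth is unknown, so no counting error could be given.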
